A study of Saccharomyces pastorianus with 12 samples.

Results

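The transcripts of a brewing yeast were ranked by abundance 4 h after transfer into an industrial propagation vessel. The ranking rests on 3 arrays, labelled A, B and C, of the 12 in the series. It orders 5635 Saccharomyces cerevisiae genes by the mean over the 3 arrays of log2 signal, where signal is the deposited linear brightness of the probe set that stands for a gene. The yeast was the lager strain CB11 of Saccharomyces pastorianus, sampled after 4 h in a 140 hl vessel seeded from an 8 hl vessel. The wort, 80% malt and 20% maltose adjunct at 17° Plato with 0.5 mg/l zinc, was kept at 20 °C and at 7 to 8 mg/l dissolved oxygen. The remaining arrays, 3 each at 0, 8 and 30 h of the same propagation, are used here only to place the same genes within each array. All groups share the strain, the wort and the oxygen supply, and the labels describe samples from 1 vessel, so the spread between arrays may be technical.

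In propagation a brewery multiplies its yeast with oxygen, before pitching it into a fermentation. Yeast in malt wort takes up and ferments sugars even when oxygen is present, and a growing yeast cell spends much of its transcription on glycolytic enzymes and on the proteins of the ribosome. A lager strain is a polyploid hybrid of S. cerevisiae and a cold-tolerant relative, and such strains neither mate nor sporulate readily. The array carries S. cerevisiae probe sets and probe sets for the fission yeast Schizosaccharomyces pombe, an organism that should be absent from the vessel. Those fission yeast probe sets give the background. The probes were not designed on the genome that the hybrid has from its other parent. A rank is therefore a rank of signals, which depend on how well each probe set binds as well as on how much transcript there is, and ratios between genes are ratios of signals and not of copies.

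The 3 arrays shared a scale and had like RNA quality. With the brightest and dimmest 2% of probe sets left out, their mean signals were 100.08, 100.08 and 100.07, against 22.6 to 377 on the arrays of the other times. The ratio of 3′ to 5′ signal of control genes, which is large where the RNA was degraded, had medians over 8 genes of 1.73, 1.87 and 2.02. Only the arrays 0h A at 35.5 and 0h C at 6.96 stood apart on that measure, and the other 7 had 1.30 to 1.98. Spearman's rho between 4h arrays, across genes that are not independent replicates, was 0.991 to 0.995.

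S. cerevisiae genes and background were far apart at 4 h. The median gene had a signal of 93.6, 92.5 and 98.96 on arrays A, B and C, against 1.24, 1.44 and 1.06 for the median S. pombe probe set, a ratio of 77.8 ± 14.5 (SD, n = 3). Of 4916 S. pombe probe sets, 0 had a mean above the median ranked gene and 5 had a mean signal above 16. The brightest was rps001, a ribosomal protein gene, at 68.1, 58.0 and 55.5, and 3601 S. cerevisiae genes had a higher mean. It was followed by the ribosomal protein gene rpl3702 at 39.8, 49.7 and 6.72, the histone gene hta1, the actin gene act1 and spi1. The first 4 encode proteins that are much alike between yeasts. Whether S. cerevisiae transcripts bound to these probe sets was not tested.

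The threshold for a signal above background was the 95th percentile of S. pombe probe sets on each array, which was 5.22, 5.57 and 4.12. Above it on all 3 arrays were 5334 genes, 94.7% of those ranked, and these are called detected. At or below it on all 3 arrays were 164 genes, 2.91% of those ranked, and these are called undetected. The remaining 137 genes, 2.43%, were above it on 1 or 2 arrays. The edge was narrow: FCY22, just undetected, had 4.77, 5.44 and 3.74, and ICS3, just detected, had 5.70, 5.71 and 4.34. The ranking was also cut into zones: the top 10% is its first 564 genes (10.0% of those ranked), the middle 20% is 1127 genes (20.0%) and the bottom 10% is 563 genes (9.99%). The median SD of log2 signal over the 3 arrays was 0.13 in the top 100, 0.12 in the middle 20% and 0.91 among undetected genes.

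**Figure D1:**
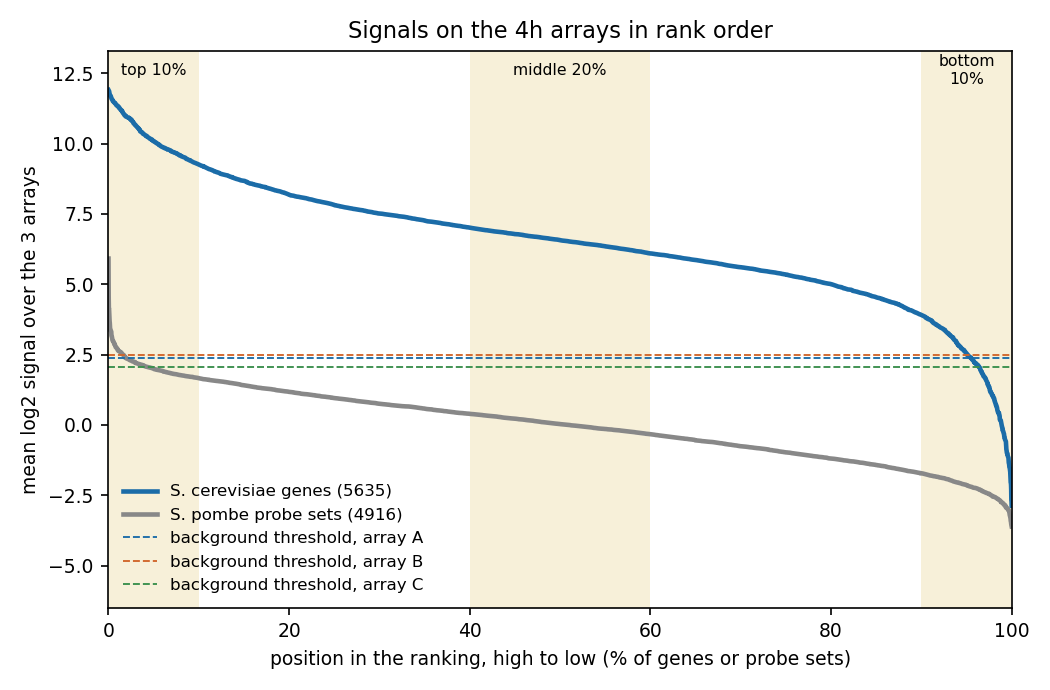
Mean log2 signal over the 3 arrays of the 4h group (vertical axis) against position in the ranking from high to low (horizontal axis, %), for 5635 S. cerevisiae genes and 4916 S. pombe probe sets, with the background threshold of each array as a dashed line. The S. cerevisiae curve is far above the S. pombe curve and meets the thresholds only within the bottom 10%.

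The signal was concentrated at the top of the ranking. The 100 highest genes held 19.3% ± 1.41 of the summed signal of all ranked genes, and the top 10% held 55.0% ± 1.68 (SD, n = 3). The middle 20% held 7.68% ± 0.37, and the 164 undetected genes held 0.0215%. The 95th percentile of genes was 180.3 ± 8.37 times the 5th percentile when taken on each array. Within the top the slope was shallow: the first gene's signal was 1.32 times that of the 30th, 1.85 times that of the 100th and 40.6 times that of the median gene. The brightest control probe set had 3638.5, 3854 and 3191 on arrays A, B and C. Whether the array compresses signals at the upper end of its scale was not tested.

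Glycolytic enzymes, ribosomal proteins, translation factors and cell wall mannoproteins filled the first places. The highest gene was TDH3, a glyceraldehyde-3-phosphate dehydrogenase, with 3813, 4319.9 and 3418 on arrays A, B and C. The phosphoglycerate mutase gene GPM1 had 3862, 4322 and 3292. The third was CCW12, a mannoprotein that holds the cell wall together, with 3782, 4236 and 3289. These 3 genes overlap on the arrays, and array B was the brightest for each of them.

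The enolase gene ENO2 had 4029, 4010.1 and 3257, and was the highest of all genes on array A. RPL3, a core protein of the large ribosomal subunit, had 3750.4, 4044 and 3384. TEF2, for the elongation factor that brings aminoacyl-tRNA to the ribosome, had 3652, 4172 and 3024 from a probe set shared with other sequences. HPF1, a mannoprotein gene named for protecting against haze in wine and beer, came seventh, and it is in none of the 48 gene lists used here. After it stood CDC19 (pyruvate kinase), TPI1 (triose phosphate isomerase), PDC1 (pyruvate decarboxylase, the step that commits pyruvate to ethanol), the large-subunit gene RPL30 and TMA19, for a ribosome-associated protein.

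The metallothionein gene CUP1-1, which binds copper, was thirteenth, with 3388, 3444 and 3135 from a shared probe set. EFT2, elongation factor 2, had 3396, 3711 and 2869.9, also from a shared probe set. Ribosomal proteins then took most places to the 30th: RPS20, RPS6B, RPS31, RPS4B, RPS27B, RPL32, RPS15, RPS8B and RPL1B, with means of 2919 to 3325. Between them stood the glycolytic and fermentative genes ENO1, TDH1, PGK1, ADH1 and FBA1, with means of 2917 to 3273. The actin gene ACT1, with a mean of 3003 ± 250.3, and the wall mannoprotein gene CWP2, with a mean of 2995 ± 279 (SD, n = 3), were there too. RPS6B, RPS4B and RPL1B were read from shared probe sets. The other copies EFT1, RPS6A, RPS4A and RPL1A were not ranked.

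**Figure D2:**
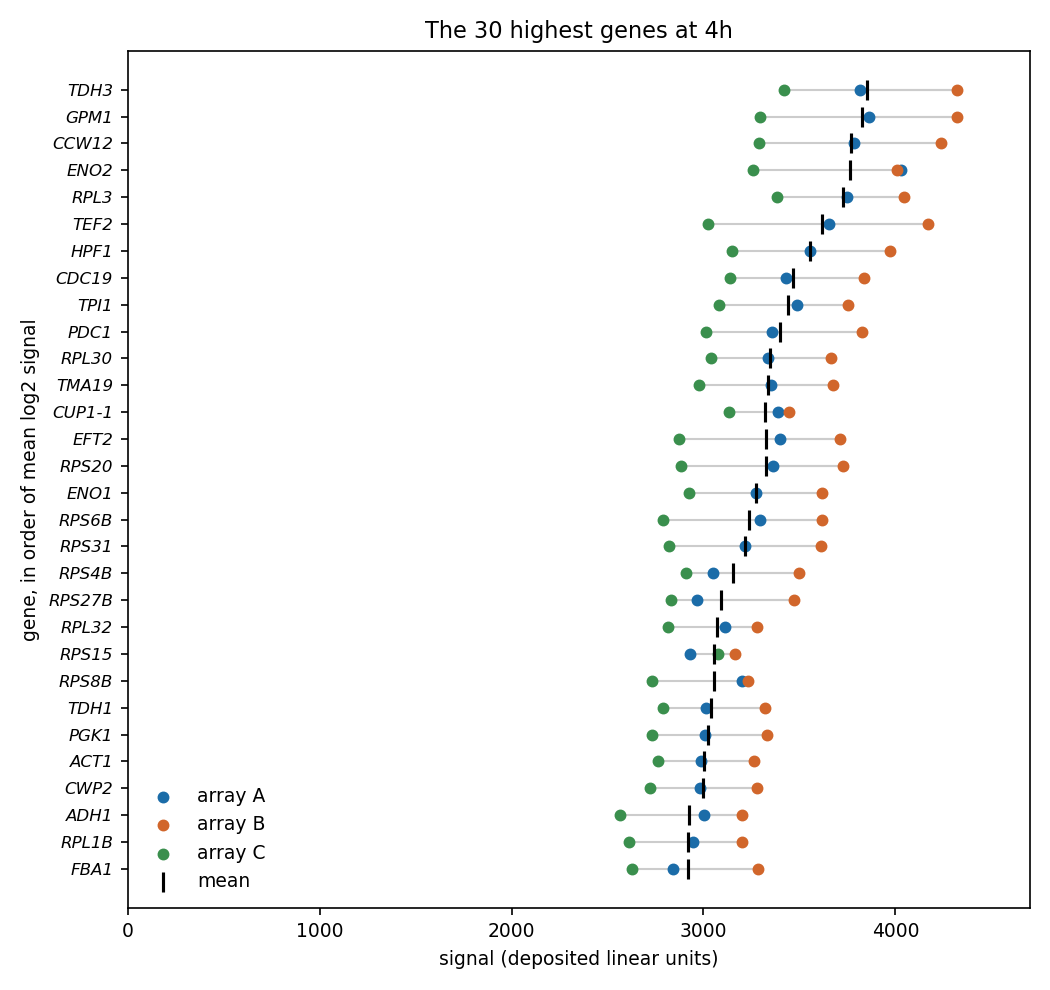
Signals of the 30 highest genes on arrays A, B and C of the 4h group in deposited linear units (horizontal axis), with a bar at the mean and genes in order of mean log2 signal. Array C is the lowest for every gene but RPS15, and the spread between arrays is wider than the step from 1 gene to the next.

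The top 100 held 60 ribosomal proteins, 35 of the large and 25 of the small subunit, and 13 genes of glycolysis and ethanol formation. It also held 5 translation factors, 4 cell wall mannoproteins, 3 chaperones, 2 general stress genes and 2 histones. Maltose use, peroxide defence and the cytoskeleton each had 1 gene there: MAL32, TSA1 and ACT1. The lists held 92 of the 100 genes, against 25.6% of all ranked genes. They were chosen with earlier results of these data known, so this coverage partly depends on that choice. The 8 in no list were HPF1, TMA19, CUP1-1, STF2, RGI1, YDR524C-B, RTC3 and FPR1, for a prolyl isomerase that binds rapamycin.

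Ribosomal proteins formed the largest block. Of 128 measured, 119 lay in the top 10%, against 10.0% of all genes, 128 in the top 50% and 0 were undetected, and their median position was above 98.1% of the other genes. Together they held 17.4% ± 0.88 of the summed signal (SD, n = 3). The members were not alike: RPL22B, a minor copy of a large-subunit gene, had 123.3, 138.5 and 119.9, and RPL15B had 158, 157 and 189. The lowest small-subunit genes were RPS9A, with a mean of 241, and RPS14B, with a mean of 372. Copies of a ribosomal protein gene are nearly identical in sequence, and how far the probes of 1 copy bind transcripts of the other was not tested.

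The rest of the translation machinery ranked lower and more widely. Of 37 translation factors, 16 lay in the top 10% and the median was above 87.3% of other genes. The initiation factor gene TIF3 was lowest at 15.7, 19.8 and 14.7. TIF3 has 1 probe set, which was not above background on 1, 0, 3 and 3 arrays at 0, 4, 8 and 30 h. How well that probe set binds this strain's transcript was not tested. All 19 aminoacyl-tRNA synthetases were in the top 50%, 10 of them in the top 10%, led by GUS1 (glutamyl-tRNA synthetase) with 1701, 1809 and 1733. Genes that build ribosomes stood apart from those that make up ribosomes: of 92 ribosome biogenesis factors, 1 lay in the top 10%, 26 in the middle 20% and 33 in the top 50%. The highest was GAR1, of small nucleolar particles that modify rRNA, with 796, 733 and 652, and the lowest was FYV7, of rRNA processing, with 12.8, 10.9 and 10.7. RNA polymerases I and III, the makers of rRNA and tRNA, had 0 of 20 subunits in the top 10% and 7 in the top 50%.

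Glycolysis and ethanol formation had the highest median of any list, above 99.5% of other genes. Of 20 measured members, 17 lay in the top 10% and 13 in the top 100, and they held 3.48% ± 0.29 of the summed signal (SD, n = 3). Hexose kinase genes came below the lower part of the pathway, with HXK1 at 2631, 3058 and 2594 and HXK2 at 2102, 2161 and 1902. The phosphofructokinase subunits PFK2 and PFK1, which set the committed step, were at ranks 174 and 242 with means of 1578 and 1215. PDC6, a minor pyruvate decarboxylase, was lowest at 41.7, 49.3 and 51.6, the only member in the lower 50% of the ranking.

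**Figure D3:**
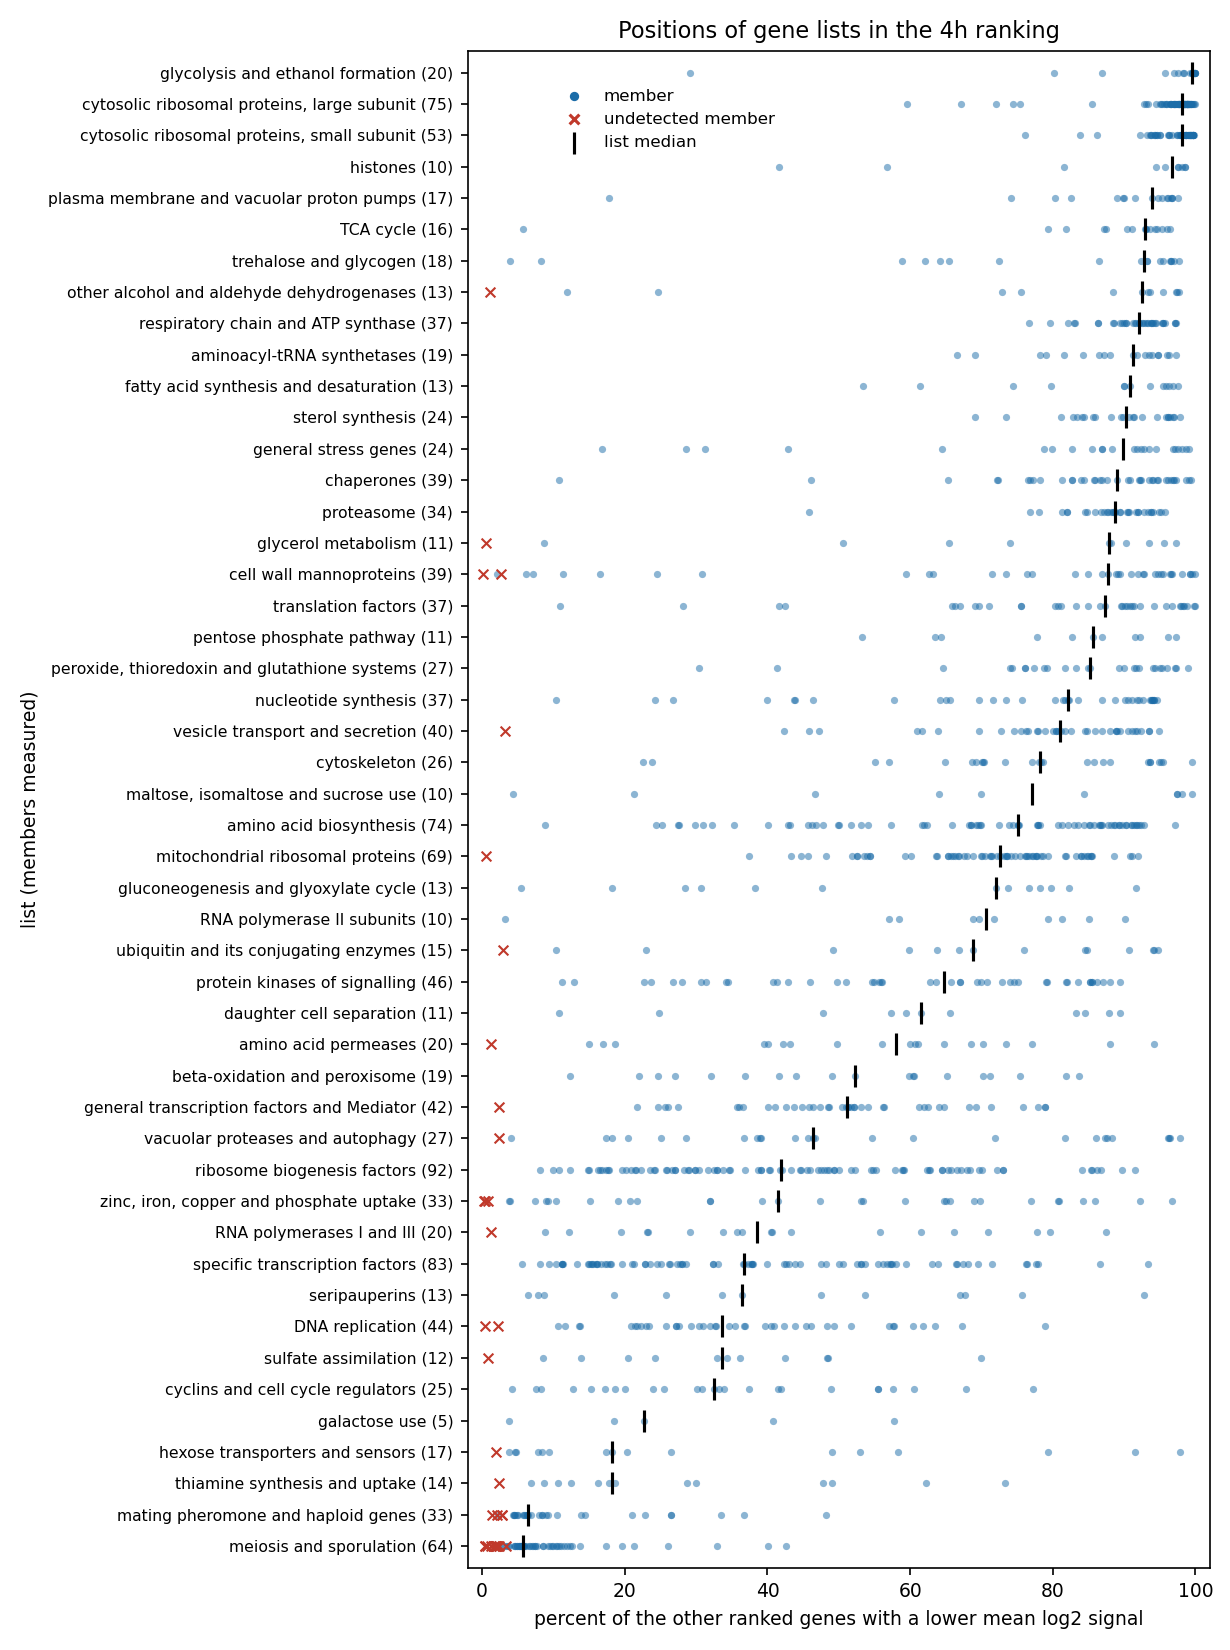
Position in the 4h ranking of each measured member of 48 gene lists, as the percent of other ranked genes with a lower mean log2 signal, with the list median as a bar and undetected members as crosses. Glycolysis, ribosomal proteins and histones lie at the right, transcription factors and ribosome biogenesis spread over the middle, and mating and meiosis genes lie at the left.

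Uptake and cleavage of wort sugars differed by sugar and by gene. MAL32, a maltase that splits maltose into glucose, was at rank 31 with 3079, 3203 and 2476 from a shared probe set, and the maltose permease gene MAL31 was at rank 106 with 2068, 2184 and 1889. IMA1 (isomaltase) and SUC2 (invertase) followed at ranks 147 and 148, with means of 1799 and 1795. Lower were the transporter gene MAL11 at a mean of 387, the regulator genes MAL13 at 85.9 and MAL33 at 34.2, and the transporter gene MPH2, which was above background on 2 arrays. Thus 4 of 10 measured members lay in the top 10%.

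Hexose transporters had few bright members. Of 17 measured transporters and sensors, HXT2 and HXT4 lay in the top 10%, 7 lay in the bottom 10% and the median was above 18.2% of other genes. HXT2, a high-affinity transporter, had 2124, 1994 and 1740 on the 3 arrays. HXT4 had 807, 725 and 633, and HXT3, of low affinity, had 285, 257 and 297. HXT1, the low-affinity transporter used at high glucose, lay close to the median gene at 99.8, 83.7 and 93.2. HXT5 and HXT7 had means of 44.0 and 27.2, and HXT9 was undetected, although 0 of the 17 were undetected when the brightest probe set stood for each gene.

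Galactose genes were low, and genes for making glucose and for the glyoxylate cycle were spread widely. None of 5 galactose genes lay in the top 10%; the repressor gene GAL80 was highest at 119.97, 119.7 and 119.9, and the galactokinase gene GAL1 had 30.2, 27.3 and 29.4. For gluconeogenesis, the fructose bisphosphatase gene FBP1 had a mean of 28.4 and PCK1, the PEP carboxykinase gene, had 46.6, 46.4 and 56.6. Of 13 members of the gluconeogenesis and glyoxylate list, 1 lay in the top 10% and 7 in the top 50%, and the median was above 72.1% of other genes. The member in the top 10% was JEN1, a lactate transporter, with 742, 704.5 and 751.

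Respiratory genes ranked high in the oxygenated vessel. Of 37 genes of the respiratory chain and ATP synthase, 26 lay in the top 10%, all 37 in the top 50% and 0 in the top 100. ATP1, the alpha subunit of ATP synthase, led them at 1797, 1815 and 1512, followed by QCR8 of complex III with a mean of 1635 and COX13 of cytochrome oxidase with a mean of 1632. The lowest was ATP20 at 230.3, 233 and 279. Of 16 genes of the tricarboxylic acid cycle, 11 lay in the top 10%. CIT1, its mitochondrial citrate synthase, had 1363, 1394 and 1385, and the isocitrate dehydrogenase genes IDH2 and IDH1 were the lowest but CIT3, with means of 331 and 281. Mitochondrial ribosomal proteins lay below both lists: 3 of 69 were in the top 10% and 63 in the top 50%.

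Most storage carbohydrate genes ranked high. UGP1, which makes UDP-glucose, had 1836, 1994 and 1928, and the glycogen branching enzyme gene GLC3 had 1607, 1621 and 1655. The trehalose synthase genes TSL1, TPS1 and TPS2 had means of 1430.5, 1418 and 1092. Of 18 members, 10 were in the top 10% and all of these but the trehalase gene NTH1 act in synthesis or make its precursors. The 2 lowest were the glycogen breakdown genes GDB1 (debranching enzyme), at 15.7, 9.83 and 10.2, and GPH1 (glycogen phosphorylase), at 8.50, 2.94 and 3.76, above background on 1 array. GPH1 was low at every time, with a median position above 3.48%, 3.16%, 1.53% and 1.90% of genes at 0, 4, 8 and 30 h, and has 1 probe set. A low transcript level and a probe set that binds this strain's transcript poorly cannot be told apart.

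Membrane and wall genes included some of the highest. The proton pump list had 10 of 17 members in the top 10%: VMA10, of the vacuolar pump, had 1830.3, 1834 and 1945, and PMA1, the plasma membrane pump that drives nutrient uptake, had 1768, 1511 and 1296. Of 39 cell wall mannoproteins, 16 lay in the top 10%, with SED1 at 2901, 3050.2 and 2413 and TIP1 at 2683, 2879 and 2494 behind CCW12 and CWP2. The flocculin genes, which make cells adhere, were at the other end. FLO1 was undetected at 0.532, 0.703 and 0.0368, FLO10 was undetected, FLO9 was above background on 1 array, and FLO11 was detected at 26.7, 25.8 and 24.8. FLO1 was not above background on any array of the series. FLO10 was not above it on 3, 3, 3 and 2 arrays at 0, 4, 8 and 30 h, and FLO9 on 1, 2, 3 and 3. Each has 1 probe set, so low transcript levels and poor binding to this strain's transcripts cannot be told apart.

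Lipid genes lay mostly in the upper part. Of 24 sterol synthesis genes, 12 were in the top 10% and 24 in the top 50%, led by ERG11, the lanosterol demethylase, with 2143, 2259 and 1538. Of 13 genes for fatty acid synthesis and desaturation, 9 were in the top 10%, led by the delta-9 desaturase gene OLE1 with 2090.4, 2046 and 1499.6. Array C was below the others for both genes. Both enzymes need oxygen, and the products of both go into membranes. Fatty acid breakdown lay near the middle, with 0 of 19 beta-oxidation and peroxisome genes in the top 10% and POT1, the thiolase, highest at a mean of 372.

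Stress and protein quality genes were common among the abundant transcripts. Of 24 general stress genes, 12 were in the top 10%, with TMA10 at 2814, 2755 and 2393 and HSP12, a membrane-protecting heat shock protein, at 2401, 2581 and 2243. Of 39 chaperones, 19 were in the top 10%, led by the ribosome-bound Hsp70 genes SSB2 and SSB1 with means of 2840 and 2671. TSA1, a peroxiredoxin, had 2594, 2791 and 2381. Of 34 proteasome subunits, 14 were in the top 10% and 33 in the top 50%, with RPN1 highest at a mean of 1206. In a list of 27 vacuolar protease and autophagy genes, 4 were in the top 10% and 12 in the top 50%. Its proteases were the 7 highest members, at ranks 121 to 713, led by the aminopeptidase gene APE3 with a mean of 1957. Its genes named ATG, for autophagy, lay at rank 788 (ATG8) and below, and ATG13 was undetected.

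Metal and phosphate uptake genes were spread over the whole ranking, and thiamine genes lay mostly in its lower 50%. ZRT1, the high-affinity zinc transporter, was at rank 189 with 1590.05, 1552 and 1316, and ZRC1, which moves zinc into the vacuole, was at rank 436 with a mean of 784. No other member of that list of 33 was in the top 10%, and the phosphate transporter gene PHO84 had 9.75, 15.2 and 15.4. The siderophore genes FIT2 and ARN2 and the reductase gene FRE3 were undetected. Of 14 thiamine genes, 0 were in the top 10% and 2 in the top 50%, led by SNZ1, of vitamin B6 synthesis, with 241, 192 and 195.

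Regulators and the general transcription machinery lay mostly outside the top 10%. General transcription factors and Mediator had 21 of 42 members in the middle 20%, against 20.0% of all genes, and 0 in the top 10%, with a median above 51.1% of genes. Of 83 specific transcription factors, 21 lay in the middle 20%, 28 in the top 50% and 1 in the top 10%, GCN4, which controls amino acid synthesis, with 907, 911 and 825. Of 46 signalling kinases, 31 were in the top 50%, 0 in the top 10% and 0 in the bottom 10%. The cyclins and cell cycle regulators lay lower, with 6 of 25 in the top 50%. CDC28, the main cell cycle kinase, was highest there at 257, 233 and 268, and the G1 cyclin gene CLN2 had 130.0, 134 and 131.5.

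The gene at the exact middle, rank 2818, was YMR085W with 94.8, 90.7 and 99.2. The 14 genes on either side covered varied functions. Above it were PFK27, which makes the glycolytic activator fructose 2,6-bisphosphate, with 98.8, 94.4 and 93.1, the kinase gene PTK2, the mitochondrial carrier gene HEM25, the calcineurin-dependent transcription factor gene CRZ1, the rRNA processing gene UTP22, the tryptophan synthesis gene TRP3 and POP6, of RNase P. Below it were POM152 of the nuclear pore, NIP7 of large-subunit assembly, the cell cycle activator gene MSA1, VTH1, GEP3, the vacuolar iron transporter gene CCC1 and LYS1, of lysine synthesis, with 101.8, 79.1 and 104.2. The 15 means ran from 94.7 to 95.6, and among these genes 0 of 105 pairs stood in the same order on all 3 arrays. Lists covered 16.9% of the middle 20%.

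Mating and meiosis genes were at the foot of the ranking. Of 64 genes of meiosis and sporulation, 0 were in the top 50%, 48 were in the bottom 10%, against 9.99% of all genes, and 11 were undetected, against 2.91%. The 11 became 18 without array C. Of 33 genes of mating and haploid cells, 0 were in the top 50%, 23 were in the bottom 10% and 4 were undetected. The highest of each list were IME4, an RNA methyltransferase, with 68.2, 74.1 and 84.4, and STE12, the transcription factor that also acts in filamentous growth, with 81.9, 87.5 and 101.4. The meiotic genes ECM11 and GMC2 were among the 15 lowest genes with a standard name.

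Markers of other yeast cell types were dim on each array. The 12 markers of haploid or mating-type cells summed to 136.7, 151.2 and 148.1, of which STE6 and SAG1, the highest, gave 33.7 and 34.0 on array A. MF(ALPHA)1, the alpha-factor gene, was undetected at 2.39, 3.19 and 3.30, and the receptor gene STE2 had 10.3, 12.03 and 11.6. The 10 markers of meiosis summed to 119.5, 136.4 and 125.9, with 0 undetected and 3 above background on 1 or 2 arrays. The meiotic master regulator gene IME1 had 10.4, 5.70 and 5.21. No marker of either kind was in the top 50%.

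Undetected genes were rich in unnamed reading frames. Of the 164, 72 (43.9%) carry only a systematic name, against 12.1% of all ranked genes, and 43 (26.2%) have the suffix given to small frames added late to the annotation, against 2.89%. Systematic names alone made up 5.14% of the top 10% and 38.5% of the bottom 10%. The other named genes at the very bottom had varied functions. FLO1 was the lowest named gene, followed upward by FEX2 (fluoride export), DAL5 (allantoate uptake), AAD3 (aryl-alcohol dehydrogenase), FIT2, SKI3 (RNA decay), RRT15, BSP1, PZF1, DPB2, GMC2, ARN2, ECM11, BDS1 (a sulfatase) and AAD10. DAL5 had 0.326, 0.116 and 0.614, and AAD3 had 0.300, 0.530 and 0.196. Signals this far under the threshold have no order, and their median SD of log2 signal was 0.91, against 0.12 for all genes. FLO1, DAL5, AAD3, FIT2, SKI3, BSP1, ARN2 and AAD10 were not above the threshold on any array of the series. GMC2 and ECM11 were above it on all 3 arrays at 30 h. For genes under it throughout, absent transcripts and probe sets that do not bind this hybrid's transcripts cannot be told apart.

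Some undetected genes encode subunits of essential machines, and these were picked out after their values were seen. DPB2, a subunit of DNA polymerase epsilon, had 0.503, 0.327 and 0.557, ORC4, of the origin recognition complex, had 2.80, 3.78 and 1.05, and RPC82, of RNA polymerase III, had 0.298, 1.58 and 3.10. SEC23, of the vesicle coat that leaves the endoplasmic reticulum, had 3.99, 4.46 and 2.28. PZF1, the factor that starts 5S rRNA transcription, PRP4, of the spliceosome, and NUT2, of Mediator, were also undetected. Each of these 7 has 1 probe set, and 6 of them, all but SEC23, were at or below the threshold on 12 of 12 arrays of the series. Absent transcripts and probe sets that do not bind this hybrid's transcripts cannot be told apart.

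Genes for the same enzyme differed in most cases by far more than the arrays did. PDC1 had 3355, 3824 and 3011, against 41.7, 49.3 and 51.6 for PDC6, a signal ratio of 71.4 with a range over arrays of 58.4 to 80.4. PMA1 was 54.2 times PMA2 and HXT2 was 72.2 times HXT7. CIT1 was 198 times CIT3, with a range over arrays of 143 to 234. CIT3 lay close to background, at 9.52, 5.95 and 5.94 against thresholds of 5.22, 5.57 and 4.12, so that ratio depends on the background. The pyruvate kinase CDC19 was 7.37 times PYK2, which is known for its role when glycolytic flux is low. For alcohol dehydrogenases, ADH1, which makes ethanol, had a mean of 2924, ADH4 1786, ADH3 806, ADH5 532 and ADH2, which uses ethanol, 234, so that ADH1 was 12.5 times ADH2.

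Pairs known for opposite responses to oxygen or glucose differed by unequal amounts. HYP2, the eIF5A form made in air, had 2068, 1998 and 1781, against 190.0, 136.5 and 178 for ANB1, the form known from cells without oxygen, a ratio of 11.7. COX5A was 2.65 times COX5B, whose product is the low-oxygen form of the same subunit, and CYC1 was 1.40 times CYC7. The glycerol-3-phosphate dehydrogenase GPD1, known for osmotic stress, was 12.3 times GPD2. HXK1, known to be repressed by glucose, was 1.34 times HXK2 by their means and higher on all 3 arrays, and GLK1 had a mean of 1855.

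Other pairs ranged from close to well apart. ENO2 was 1.15 times ENO1, TDH3 was 1.26 times TDH1 and BAT2 was 1.17 times BAT1, with the last ratio as low as 1.02 on 1 array. The constitutive Hsp90 gene HSC82 was 1.88 times HSP82, and the cytosolic catalase CTT1 was 7.64 times the peroxisomal CTA1. RNR3, the damage-inducible large subunit of ribonucleotide reductase, had 58.2, 64.7 and 85.0, against 38.7, 42.3 and 36.5 for RNR1, the usual one, a ratio of 1.75. In 21 of 22 sets no member had a shared-probe ending, and in the other, the hexose transporters, HXT7 had one. How far the probes of 1 gene bind transcripts of another in its set, or of the hybrid's other parent, was not tested.

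**Figure D4:**
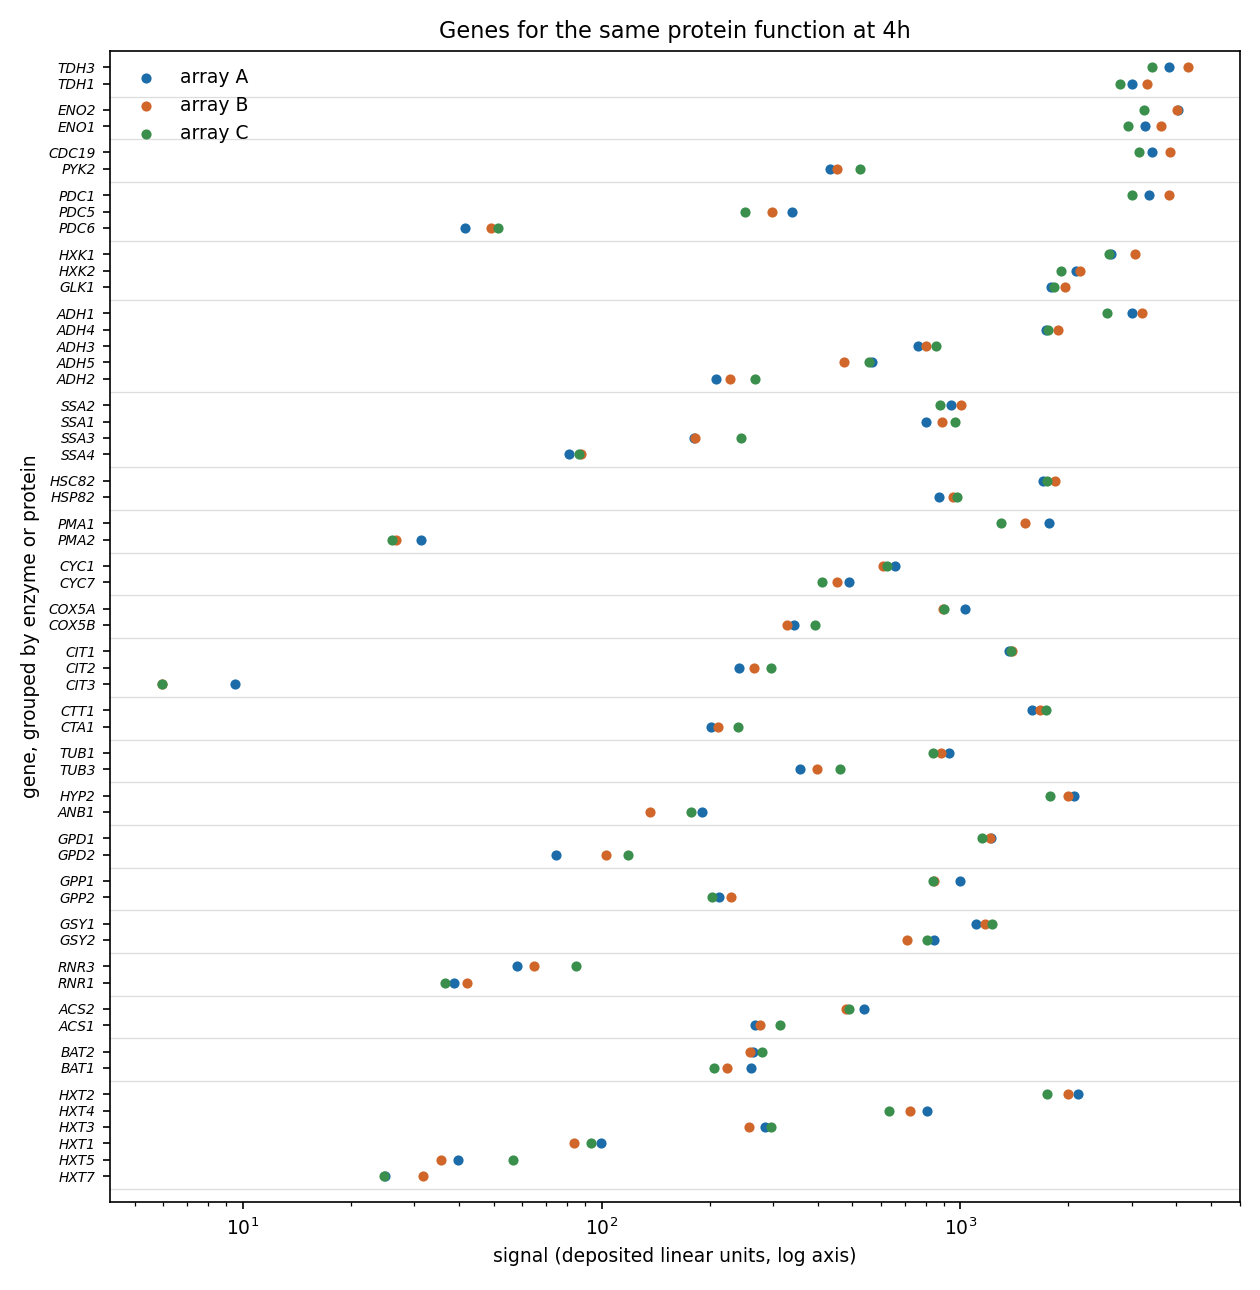
Signals on arrays A, B and C of the 4h group, on a log axis in deposited linear units, for genes that share a protein function, grouped by set. Within sets such as the pyruvate decarboxylases or the proton ATPases the members lie far apart, whereas the enolases lie close together.

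Neighbours in the ranking could not be ordered. Of 29 neighbouring pairs among the 30 highest genes, 3 stood in the same order on all 3 arrays, and of the 99 in the top 100, 4 did. Over all pairs of ranked genes 94.9% kept their order. Pairs under 0.1 apart in mean log2 signal kept it in 11.4% of cases, pairs 0.2 to 0.5 apart in 88.2% and pairs 0.5 to 1 apart in 99.05%. The arrays shared 92 to 95 of their own 100 highest genes, pair by pair, and 90 of the top 100 genes had their signals in the order B, A, C, against 95 of 1127 in the middle 20%. With 3 arrays, the smallest two-sided exact p for a pair of genes is 0.25, so no order was tested.

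On the arrays of the other times, each ranked within itself, the 100 highest genes of 4 h kept high positions early and less so late. They were chosen on the 4h arrays, so some fall on the other arrays is built into the choice. Of these 100, 48, 73 and 71 were among the 100 highest on the 0h arrays, 46, 47 and 37 on the 8h arrays and 16, 13 and 13 on the 30h arrays. Their median position by array was above 98.2% to 99.1% of genes at 0 h. At 8 h it was above 97.4% to 98.1%, and at 30 h above 87.4% to 91.0%. By the median over the 3 arrays of 30 h, the lowest was PGI1, phosphoglucose isomerase, above 25.1% of genes, and HPF1 was the highest, above 99.9%. No test of a difference between times was made, and the 48 comes from array 0h A, whose 3′ to 5′ ratio was 35.5.

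Of the 164 genes undetected at 4 h, 76 were at or below the threshold on all 12 arrays. Above it on all 3 arrays of a time were 8 genes at 0 h, 53 at 8 h and 67 at 30 h. The 164 were chosen as undetected at 4 h, so elsewhere they could only stay undetected or rise. Of all ranked genes, 257 to 444 were not above it on a 0h array and 195 to 251 on a 4h array. On an 8h array 398 to 786 were not, and on a 30h array 250 to 287. Divided by the threshold, the median gene was 6.22 to 21.3 on the 0h arrays, 16.6 to 24.0 on the 4h arrays, 2.55 to 3.69 on the 8h arrays and 4.20 to 4.99 on the 30h arrays, and its part in these counts was not tested. Only 6 were above it on all 9 other arrays: JJJ3, UBC11, FYV5, YJL136W-A, YHL012W and YAR064W. UBC11, a ubiquitin-conjugating enzyme gene, had 5.06, 1.85 and 3.32 at 4 h, with its lowest value elsewhere 15.1 on 8h A. The meiotic recombination genes SAE3 and HOP2, undetected at 4 h, had median positions above 95.1% and 82.5% of genes at 30 h. They were picked after their values were seen. Other meiotic genes among the 67 were spread below them at 30 h: GMC2 at 77.5%, NDJ1 at 46.8%, MEI5 at 16.7% and ECM11 at 9.03%.

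**Figure D5:**
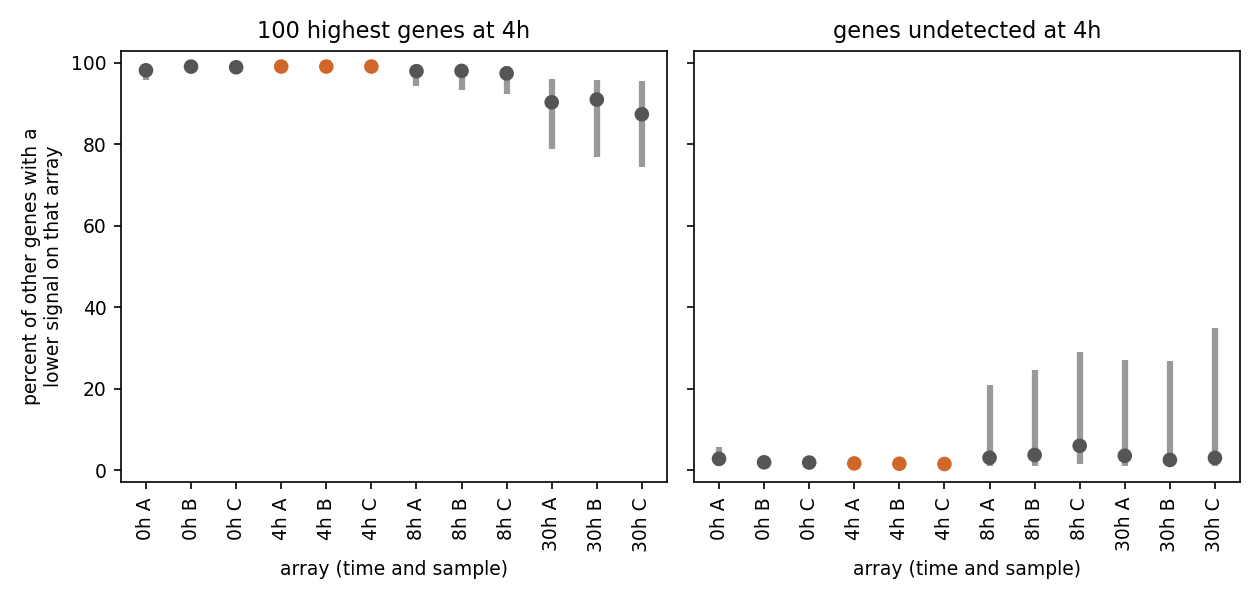
Position on each of the 12 arrays (horizontal axis, in time order) of the 100 highest genes at 4 h and of the 164 undetected at 4 h, as the percent of other genes with a lower signal on that array. Points are medians, bars run from the lower to the upper quartile, and the 4h arrays are orange. The top 100 spread downward at 30 h and the undetected genes spread upward at 8 and 30 h. Both sets were chosen on the 4h arrays.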

How the data were processed

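Biotin-labelled cRNA of strain CB11 was hybridised to single-colour Affymetrix yeast arrays, 1 per sample. Each deposited value is the linear intensity of 1 probe set. Per the submitters' processing notes the tools were GCOS 5.0 and MAS5; their settings are not given in the sources used here. No further scaling was applied, since the 4h arrays shared a trimmed mean. Genes were named from the platform's annotation, which can be old: of 10928 probe sets, 5685 carried 1 S. cerevisiae gene, 4916 carried 1 S. pombe gene, 46 carried several genes, 68 had none and 213 were controls. One probe set stood for a gene, those without a shared-probe ending first and then the brighter, which left 81 genes with such an ending. Of the gene names used in the lists, 14 older forms were read by their current name.

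Genes were ranked by mean log2 intensity over the 3 arrays computed here from the deposited values, with pandas 2.3.3 and numpy 2.4.6 in Python 3.11.15. Named genes are the 30 highest, the 15 at the median, the 15 lowest named undetected genes, list members at either end (2 each), members of same-function sets, the 5 brightest S. pombe probe sets and a panel of 35, not all of which were ranked; a few others were named after their values were seen. The members and lists were chosen with earlier results of these data known. No test was made. The ranking steps were tested on simulated data. Sequences were not analysed here. The number of arrays limits the precision.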

Additional observations from a re-analysis of the deposited data

Results flagged for a closer look

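Among probe sets outside the ranking, 27 of the 68 with no gene named were above the background threshold on all 3 of the 4h arrays, 39.7% of them, against 94.7% of ranked genes. The brightest had 2674, 2879 and 2656, and 2 lay within the range of the top 100. Of the 46 probe sets with several genes, 1 was above the threshold on all 3 arrays, that of the S. pombe genes gpd3 and tdh1, for glyceraldehyde-3-phosphate dehydrogenase, with 14.2, 13.2 and 9.34.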

How the results depend on the processing

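The 164 undetected genes became 128 at the 90th percentile of S. pombe signals and 268 at the 99th, and were 242 by mean signal and 161 with the brightest probe set of a gene. Leaving out 1 array gave 174 to 206, and the detected count was 5245 to 5393 under every alternative run. Of the top 100, 87 remained without genes that have shared-probe endings only. That number was fixed in advance, since 13 of the 100 had such an ending and dropping genes only moves others up. With the brightest probe set 91 remained, and 96 to 100 under the other settings, arrays left out included. Among those settings, centring each array on its median cannot change an order by mean log2 signal. The ratio of the 95th to the 5th percentile of mean signals was 187.4, 50.2 with a pseudocount of 16, and 175 to 187 with 1 array left out. The median of the top 100 was 28.0 times the median gene, and 24.1 times with that pseudocount. The top 10% held 54.3% to 56.0% of summed signal with 1 array left out, and 55.3% with the S. pombe median subtracted, settings chosen after seeing the data. List counts in the top 10% were within 1.5 times in 430 of 432 cases and undetected counts in all but 18 of 119; undetected meiosis genes went between 6 and 23, and were 18 without array C. Low signals limit the order of dim genes. No paired test was run, because no test was made. Protein and promoter properties by rank were not run.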
